A study of Homo sapiens with 18 samples.

Results

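The 49 genes described here encode the machinery that copies DNA, and they were chosen by name, from the origin recognition complex to the enzymes that supply deoxynucleotides. They are 49 of the 20020 protein-coding genes in the GENCODE annotation of hg38. Their promoters were read in Cut&Tag libraries, in which an antibody against a histone modification guides the Tn5 transposase to cut and tag the DNA around it. The cells were MOLM-13, a human acute myeloid leukemia line with a KMT2A rearrangement, and they received 100 nM PR-957, an inhibitor of the immunoproteasome subunit PSMB8, or DMSO as the vehicle. The comparison asks whether the inhibitor alters promoter chromatin in these leukemia cells. Each of 4 modifications (H3K4me3, H3K27ac, H3K4me1 and H3K27me3) has 2 DMSO and 2 PR-957 libraries, 16 in all. The labels give a treatment of 72 h, and a figure legend of the study gives a shorter one. The 2 IgG samples were not analysed here. All libraries come from the same cell line, nothing in the labels says whether the libraries of a group came from separate cultures, and p-values therefore measure only the spread between these libraries.

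For each modification the authors listed genomic intervals and counted reads or fragments on them in every library. Among the intervals that reach within 2 kb of any annotated transcription start of a gene, the one whose count was highest on average over the 4 libraries was taken as its promoter interval, called its representing interval below. Levels are given as CPM, the count scaled to the normalized total of its library, and as CPM per kb of interval wherever genes are compared with each other. A difference was called at an adjusted p of 0.05 in edgeR's quasi-likelihood test over all tested intervals of a modification.

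Total counts per library were 9885836 to 14165777 for H3K27ac, 15204186 to 30584219 for H3K4me1, 10032503 to 12047958 for H3K27me3 and 30070119 to 44591150 for H3K4me3. The listed intervals overlap, so a read can enter such a total more than once. Both H3K4me3 libraries from DMSO were deeper than both from PR-957, with 44591150 and 42037643 counts against 30070119 and 30454212. The same held in H3K4me1, with 30584219 and 23874111 counts in DMSO against 15204186 and 22790073 in PR-957. The part of this depth in the H3K4me1 differences, that of UHRF1 included, was not tested. The SE of the fitted log2 fold change had a median of 0.0819 over the replication genes in H3K4me3, 0.171 in H3K27ac and 0.206 in H3K4me1, so H3K4me3 is the most precise of the 3. Of 10 markers of myeloid and KMT2A-rearranged leukemia cells, 10 had a promoter interval in H3K27ac and 9 in H3K4me3, where MPO had none. Of the markers of other cell types reported here, PAX5 had an interval in both modifications, and CD3E, CD3D, GATA1, ALB, GATA4, NEUROD1, MYOD1 and CDH1 had none in either.

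Replication starts where the origin recognition complex marks the DNA and CDC6 and CDT1 load the ring of MCM proteins, which CDC45 and the GINS complex turn into an active helicase. Primase then starts the new strands, and polymerases delta and epsilon extend them on the PCNA clamp. Many of these genes are transcribed as cells enter S phase, under E2F transcription factors that bind short elements in their promoters. H3K4me3 and H3K27ac mark active promoters, H3K4me1 lies on their flanks and on enhancers, and H3K27me3 marks genes silenced by Polycomb.

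The promoters below are those the comparison turns on, in which UHRF1 held the called H3K4me1 interval, TYMS, GINS3 and POLE had the smallest p-values in H3K27ac, and CDC7 and GINS3 had 2 of the 3 smallest in H3K4me3. RPA3, the other of those 3, has no entry in the promoter table. Each sequence is the 250 bases before the RefSeq start in GRCh38.p14, 5′ to 3′ on the strand of the gene. Capitals mark an E2F element, searched as TTTCCCGC, TTTGGCGC, TTTCGCGC or TTTGCCGC on both strands, and a CCAAT box, the site of NF-Y, searched as CCAAT on both strands. UHRF1 lies at chr19:4909251-4909500 on the plus strand, TYMS at chr18:657403-657652 on the plus strand, GINS3 at chr16:58392221-58392470 on the plus strand, POLE at chr12:132687343-132687592 on the minus strand and CDC7 at chr1:91500601-91500850 on the plus strand.
UHRF1: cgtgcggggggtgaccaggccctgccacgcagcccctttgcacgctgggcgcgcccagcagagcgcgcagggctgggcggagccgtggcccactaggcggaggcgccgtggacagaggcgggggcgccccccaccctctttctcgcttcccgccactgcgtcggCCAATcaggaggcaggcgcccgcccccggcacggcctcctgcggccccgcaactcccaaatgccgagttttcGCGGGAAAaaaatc
TYMS: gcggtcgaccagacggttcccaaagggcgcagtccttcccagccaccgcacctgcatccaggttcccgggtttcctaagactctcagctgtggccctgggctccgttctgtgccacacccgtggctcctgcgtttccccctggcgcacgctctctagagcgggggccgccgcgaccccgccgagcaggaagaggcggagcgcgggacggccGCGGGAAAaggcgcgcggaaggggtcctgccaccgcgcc
GINS3: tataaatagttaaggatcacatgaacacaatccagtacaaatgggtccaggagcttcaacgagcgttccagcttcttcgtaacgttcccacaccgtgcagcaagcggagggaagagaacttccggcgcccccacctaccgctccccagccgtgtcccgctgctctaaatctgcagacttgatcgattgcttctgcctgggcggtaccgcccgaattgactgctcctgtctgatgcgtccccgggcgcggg
POLE: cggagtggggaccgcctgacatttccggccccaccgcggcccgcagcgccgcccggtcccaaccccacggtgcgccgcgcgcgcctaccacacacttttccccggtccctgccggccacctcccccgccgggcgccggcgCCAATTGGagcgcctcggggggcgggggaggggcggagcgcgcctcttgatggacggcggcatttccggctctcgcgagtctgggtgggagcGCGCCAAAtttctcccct
CDC7: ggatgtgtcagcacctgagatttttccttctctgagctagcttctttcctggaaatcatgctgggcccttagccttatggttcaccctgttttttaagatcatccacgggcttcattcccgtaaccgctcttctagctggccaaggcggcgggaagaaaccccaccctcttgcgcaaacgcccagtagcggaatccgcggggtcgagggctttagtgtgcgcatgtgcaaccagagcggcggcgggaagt

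The UHRF1 and TYMS promoters carry the same E2F word, GCGGGAAA, close to the start, and POLE carries GCGCCAAA. UHRF1 and POLE also hold CCAAT boxes, and the POLE sequence holds CCAAT on both strands in overlapping letters. In GINS3 the searched E2F words do not occur in these 250 bases, and 1 occurs once the first 50 bases after the start are added. In CDC7 none of the words of either element occurs in the 300 bases.

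Of the 49 genes, 43 were matched by symbol to a RefSeq promoter of 300 bases, from 250 before to 50 after the start. MCM4, MCM5, GINS4, POLD3, RPA2 and RPA3 were not matched. An E2F word was present in 19 of the 43 promoters (44.2%) and in 3.31% of all 35116 promoters of the table. The 19 were ORC3, CDC6, CDT1, MCM2, MCM3, MCM6, MCM7, 3 GINS genes, RFC3, POLA2, POLE, POLE2, LIG1, TYMS, UHRF1, E2F1 and CASP8AP2. A CCAAT box was present in 26 of 43 (60.5%) against 34.6% of all promoters, and the GC box GGGCGG, bound by SP1, in 32 of 43 (74.4%) against 45.0%. The cell cycle element TTTGAA was found in 2 of 43 (4.65%) against 15.2%. The promoters of the 43 had a median GC content of 65.7% and a median of 31 CpG dinucleotides, against 58.7% and 14 over all promoters. These are counts of letters over promoters of unequal base composition, with no test, and a match is not evidence of binding.

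**Figure D1:**
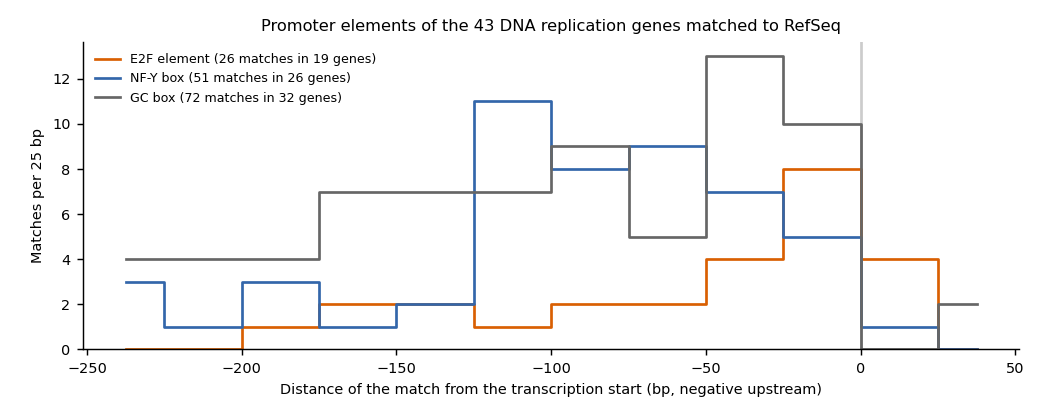
Number of matches per 25 bp (vertical axis) by distance in bp from the RefSeq transcription start (horizontal axis, negative upstream) for E2F elements, NF-Y boxes and GC boxes in the promoters of the 43 matched genes. The 26 E2F matches had a median position 32 bp upstream of the start, and the 51 NF-Y boxes a median 86 bp upstream.

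A promoter interval was listed for 48 of the 49 genes in H3K4me3 and for the same 48 in H3K27ac, and CASP8AP2, a gene with a role in histone gene expression, had none in any modification. Over all protein-coding genes, 63.9% had an interval in H3K4me3 and 60.4% in H3K27ac. H3K4me1 intervals were listed near 23 of the 49 genes (46.9%), close to the 43.5% of all protein-coding genes. H3K27me3 intervals were listed near 0 of 49, against 3976 of 20020 protein-coding genes (19.9%), so this modification gave no value for the comparison. The H3K27me3 interval nearest to a canonical start lay 6376 bp from that of GINS2, and the median distance over the 49 genes was 150197 bp.

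Some representing intervals lay at alternative starts, away from the start of the canonical transcript. These were GINS1, POLD3 and RPA3 in H3K4me3, the same 3 and LIG1 in H3K27ac, and CDC6, MCM5, RFC2, POLA2, POLD1, POLD3 and CHAF1A in H3K4me1. The RPA3 interval lay 75459 bp from the canonical start and holds the start of UMAD1. In H3K4me3, 20 of the 48 intervals hold the start of another gene as well, such as PRKDC beside MCM4, PXMP2 beside POLE and ATM beside NPAT, and counts there cannot be divided between the neighbours.

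In DMSO the median H3K4me3 level of the 48 genes was 5.64 CPM per kb, with a range from 2.06 to 14.1, and the median over all protein-coding genes with an interval was 4.59 CPM per kb. The highest H3K4me3 level was at MCM4, a subunit of the helicase ring, with 14.1 ± 0.0023 CPM per kb (SD, n = 2). ORC6, a subunit of the origin recognition complex, followed with 11.8 ± 0.339 and GINS1, a subunit of the GINS complex, with 9.49 ± 0.320. The GINS1 value belongs to an alternative start 15402 bp from the canonical start, in an interval that holds the start of ABHD12. RFC3 of the clamp loader had 9.16 ± 0.132 and PRIM2 of the primase 8.17 ± 0.551 CPM per kb, and PCNA at 8.16 ± 0.328 did not differ from PRIM2 beyond that spread. The lowest levels were at RPA2, which binds single-stranded DNA, with 2.06 ± 0.199, PRIM1 with 2.30 ± 0.0505, RFC5 with 2.61 ± 0.109, CHAF1B with 2.66 ± 0.234 and POLE2 with 2.78 ± 0.0456 CPM per kb. Some subunits of the same complex therefore lay far apart, with PRIM2 above PRIM1 and RFC3 above RFC5 in every library. ORC1 with 7.25 ± 0.160, ORC2 with 6.60 ± 0.308 and ORC3 with 7.51 ± 0.368 CPM per kb lay closer together. ORC6 of the same complex lay above these 3, at 11.8 ± 0.339 CPM per kb.

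The H3K27ac levels had a median of 3.98 CPM per kb in DMSO, against 4.00 over all genes with an interval. The H3K27ac interval of CDC45, a helicase component, also holds the start of UFD1. CDC45 had the highest H3K27ac level at 19.7 ± 1.22 CPM per kb (SD, n = 2). It was followed by ORC6 with 13.5 ± 0.941, MCM4 with 10.96 ± 1.04, RFC3 with 10.7 ± 1.04 and ORC1 with 9.501 ± 0.728, and MCM4 and RFC3 did not differ beyond that spread. The lowest were GINS2 with 1.34 ± 0.552, LIG1 with 1.43 ± 0.439, PRIM1 with 2.18 ± 0.350, CHAF1B with 2.22 ± 0.199 and RPA2 with 2.30 ± 0.421 CPM per kb. PRIM1, CHAF1B and RPA2 were thus among the 5 lowest in both modifications. The LIG1 value belongs to an alternative start 29157 bp from the canonical start, where LIG1 had 7.55 ± 0.0996 CPM per kb in H3K4me3. Across the 48 genes the log levels of H3K4me3 and H3K27ac had a Pearson correlation of 0.68 and a Spearman correlation of 0.69, over intervals that share sequence, width and neighbouring genes.

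Promoters shared with another gene had higher levels. The median H3K4me3 level was 6.86 CPM per kb for the 20 intervals that hold another start (3.87 to 14.1) and 4.35 for the 28 that do not (2.06 to 9.16), and the ranges overlapped. By role, the origin recognition genes had the highest median H3K4me3 level (7.38 CPM per kb, 4 genes) and the PCNA clamp with its loader the lowest (3.98 CPM per kb, 6 genes, from 2.61 at RFC5 to 9.16 at RFC3). The intervals of ORC1, ORC3 and ORC6 hold another gene's start, and those of the clamp and its loader hold none. The part of shared promoters in the contrast between roles was not tested.

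UHRF1 was the gene with a called difference. The UHRF1 protein binds hemimethylated DNA behind the fork and brings in the maintenance methyltransferase DNMT1. Its representing H3K4me1 interval at chr19:4900038-4917365 had 47.7 and 48.0 CPM in DMSO and 35.1 and 35.4 CPM in PR-957. Both PR-957 libraries lay below both DMSO libraries, with a log2 fold change of -0.44 (SE 0.116) and an adjusted p of 0.0195. H3K4me1 was called in 1 of 23 genes, and 1.94 percent of all tested H3K4me1 intervals and 2.15% of protein-coding genes represented in the same way were called. The libraries are bulk, so a lower count cannot tell fewer cells with the mark from less of it per cell.

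The interval is 17327 bp wide, from 9463 bp before the canonical start of UHRF1 to 7864 bp after it, and it holds the start of ARRDC5 too. The list places 6 H3K4me1 intervals in the UHRF1 window, some nested, and 4 of them were called. All 4 hold the canonical start, and 3 of them cover nearly the same stretch, so they are not separate calls. The other one is the narrow interval at chr19:4904846-4909936, which lies mostly before the start, ends 435 bp after it, overlaps the first exon and covers the printed promoter. It had 18.4 and 18.5 CPM in DMSO and 11.7 and 12.0 CPM in PR-957 (log2 fold change -0.63, SE 0.126, adjusted p 0.000568). Farther upstream, at chr19:4900601-4904091, the libraries had 14.8 and 12.2 CPM in DMSO against 10.7 and 10.2 CPM in PR-957, with a log2 fold change of -0.38 and an adjusted p of 0.107. Downstream, at chr19:4910823-4915701, they overlapped between treatments, with 10.7 and 13.5 against 11.2 and 9.78 CPM, a log2 fold change of -0.21 and an adjusted p of 0.468. Neither of the intervals that lie wholly on one side of the start was called, and the difference between both sides was not tested.

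At the same promoter the H3K4me3 interval had 33.2 and 33.1 CPM in DMSO and 27.9 and 31.4 CPM in PR-957, with a log2 fold change of -0.16 (SE 0.0766, adjusted p 0.616), which was -0.08 when PR-957 replicate 1 was left out and -0.25 without replicate 2 of that treatment. H3K27ac had 11.7 and 10.99 CPM against 9.86 and 9.36 CPM, with a log2 fold change of -0.25 (SE 0.190, adjusted p 0.820). In each of the 3 modifications both PR-957 libraries were below both DMSO libraries, and in H3K4me3 and H3K27ac the difference was not called.

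The log2 fold change of the representing UHRF1 interval kept its direction in 16 of 16 alternatives, from -0.45 to -0.33. Its call was lost in 6 of them, under DESeq2 (adjusted p 0.148), with the replicate block (0.10), with offsets for GC content (0.155), and without DMSO replicate 1 (0.0529), PR-957 replicate 1 (0.282) or PR-957 replicate 2 (0.195). The narrow interval at the start kept its call in 11 of 12 alternatives and lost it under DESeq2 (adjusted p 0.148). Over all tested H3K4me1 intervals the log2 fold change had a Pearson correlation of -0.37 with GC content, and the part of GC content was examined here only through those offsets, under which the narrow interval had a log2 fold change of -0.53 and an adjusted p of 0.00952.

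A second gene held a called H3K4me1 interval that does not represent it. RRM1 encodes the large subunit of ribonucleotide reductase, which makes deoxynucleotides. The interval at chr11:4102667-4105903, 7868 bp after the canonical start in the intron between exons 2 and 3, had 1.35 and 1.34 CPM in DMSO and 4.62 and 2.48 CPM in PR-957. PR-957 was higher in both libraries, which were far apart, with a log2 fold change of 1.36 (SE 0.318, adjusted p 0.00583). Without PR-957 replicate 1 it was 0.88 with an adjusted p of 0.385, and the call was also lost under DESeq2 (0.308) and without DMSO replicate 1 (0.0831) or 2 (0.0519). At the RRM1 start itself H3K4me1 had 3.15 and 2.13 CPM against 2.76 and 2.96 CPM, and the groups overlapped. In all, 5 of the 96 H3K4me1 intervals in the windows of 23 genes were called (5.21%, against 1.94% of all tested intervals), the 4 overlapping ones at UHRF1 and 1 at RRM1.

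The other 22 genes with an H3K4me1 interval did not pass. The smallest unadjusted p among them was at MCM2, of the helicase ring, with 6.504 and 7.27 CPM in DMSO and 4.11 and 6.13 CPM in PR-957 (log2 fold change -0.40, SE 0.181, adjusted p 0.242), and the sign turned to 0.12 when a 5 kb window gave MCM2 another interval. GINS4 had 6.17 and 4.26 against 4.04 and 4.04 CPM (-0.38, SE 0.206). POLD1, the catalytic subunit of polymerase delta, was represented by an interval 28476 bp from its canonical start that holds the start of SPIB, with 39.4 and 33.1 against 30.9 and 33.3 CPM, and the groups overlapped. CDC6 had the highest log2 fold change, 0.55 (SE 0.370), from 1.19 and 1.71 to 1.60 and 2.52 CPM, which overlapped as well. MCM4, of the helicase ring, had 4.57 and 5.94 CPM in DMSO and 6.42 and 6.001 CPM in PR-957 (log2 fold change 0.24, SE 0.186, adjusted p 0.538), and both PR-957 libraries lay above both DMSO libraries. These values rested on single libraries. Without DMSO replicate 1 the log2 fold change was -0.08 at GINS4, -0.04 at POLD1, 0.29 at CDC6 and 0.06 at MCM4, and without DMSO replicate 2 it was -0.61, -0.29, 0.82 and 0.44 at the same genes. At MCM2 it was -0.16 when PR-957 replicate 1 was left out and -0.74 without replicate 2 of that treatment, and at CDC6 it was 0.16 without PR-957 replicate 2. The log2 fold change was below 0 in 12 of 23 genes (50.1% of all intervals, 62.1% of genes represented in the same way), with a median of -0.0024. Libraries did not overlap in 5 genes that were lower in PR-957 (CDT1, MCM2, GINS4, PRIM1 and UHRF1) and 2 that were higher (ORC6 and MCM4), where 23.2% and 23.5% of all tested intervals and 32.5% and 15.3% of genes did so. By role, 4 of the 7 polymerase and primase genes had an H3K4me1 interval, and all 4 were below 0 (median -0.12). Among them POLA2, POLD1 and POLD3 were read away from the canonical start. Of the 4 deoxynucleotide genes 3 had an interval, and none of these was below 0 (median 0.11). No representing interval was called in either role.

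No gene was called in H3K27ac, with a smallest adjusted p of 0.262 in edgeR, while 0.238 percent of all tested H3K27ac intervals and 0.48% of protein-coding genes were called. The same fit called HOXA9 and MEIS1 among the 10 myeloid markers. An unadjusted p under 0.05 was reached by 4 of 48 genes, TYMS, GINS3, POLE and TK1, a share of 8.33% beside 8.01% of all intervals, and DESeq2 also called none, with an unadjusted p under 0.05 in 4. TYMS, thymidylate synthase, makes the thymidine nucleotide, and its interval at chr18:656426-659721 had 15.6 and 17.7 CPM in DMSO and 10.1 and 13.1 CPM in PR-957 (log2 fold change -0.50, SE 0.167). TK1, thymidine kinase, supplies the same nucleotide by salvage and had 8.17 and 10.49 CPM against 6.74 and 5.77 CPM (-0.57, SE 0.219, adjusted p 0.3904). The libraries of both genes did not overlap between treatments. The other deoxynucleotide genes differed in sign, with RRM1 at -0.06 and RRM2 at 0.08.

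GINS3, a subunit of the GINS complex, had the lowest H3K27ac log2 fold change of the 48, -0.67 (SE 0.239, adjusted p 0.328), with 7.11 and 8.77 CPM in DMSO and 6.44 and 3.73 CPM in PR-957. The PR-957 libraries were nearly as far apart as the treatments, and leaving out PR-957 replicate 1 gave -1.08, whereas leaving out PR-957 replicate 2 gave -0.29. Its partners GINS1, GINS2 and GINS4 had log2 fold changes of 0.11 (SE 0.143), 0.28 (SE 0.465) and -0.06 (SE 0.128). The GINS2 value rests on low counts, 34 and 14 in DMSO and 22 and 38 in PR-957. The GINS1 interval lies 15860 bp from the canonical start and holds the start of ABHD12. The difference between the subunits was not tested. POLE, the catalytic subunit of polymerase epsilon, was higher in both PR-957 libraries, with 19.8 and 18.3 CPM in DMSO and 26.7 and 23.1 CPM in PR-957 (0.37, SE 0.134, adjusted p 0.348). The POLE interval holds the start of PXMP2, and POLE2, of the same polymerase, had -0.14 (SE 0.228). FEN1, which trims Okazaki fragments, had 31.1 and 31.1 CPM in DMSO and 25.6 and 27.9 CPM in PR-957 (-0.21, SE 0.115), and RPA3 had 8.48 and 8.97 against 5.94 and 7.39 CPM (-0.37, SE 0.217), which was -0.24 without PR-957 replicate 1.

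Over the 48 genes the H3K27ac log2 fold change had a median of -0.04 and was below 0 in 30 genes (62.5%, against 50% of all intervals and 49.8% of genes). Libraries did not overlap in 11 genes that were lower (22.9%, against 18.8% of all intervals and 19.3% of genes) and 5 that were higher (10.4%, against 18.1% and 19.1%). The 11 were CDT1, MCM3, CDC45, CDC7, GINS3, PCNA, RPA3, FEN1, TYMS, TK1 and UHRF1, and the 5 were MCM2, POLE, RRM2, SLBP and NPAT. SLBP binds the end of histone mRNA and NPAT activates histone genes, and they had log2 fold changes of 0.11 (SE 0.0660) and 0.21 (SE 0.148). In 47 of 48 genes the fitted value lay within 1.5-fold of DMSO. With a 5 kb window 1 gene was called, RFC4, through an interval at chr3:186782723-186789439 that lies 17043 bp from its canonical start and holds that of EIF4A2, with 70.5 and 68.3 CPM in DMSO and 51.7 and 51.8 CPM in PR-957 (log2 fold change -0.42, SE 0.0783, adjusted p 0.000117).

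**Figure D2:**
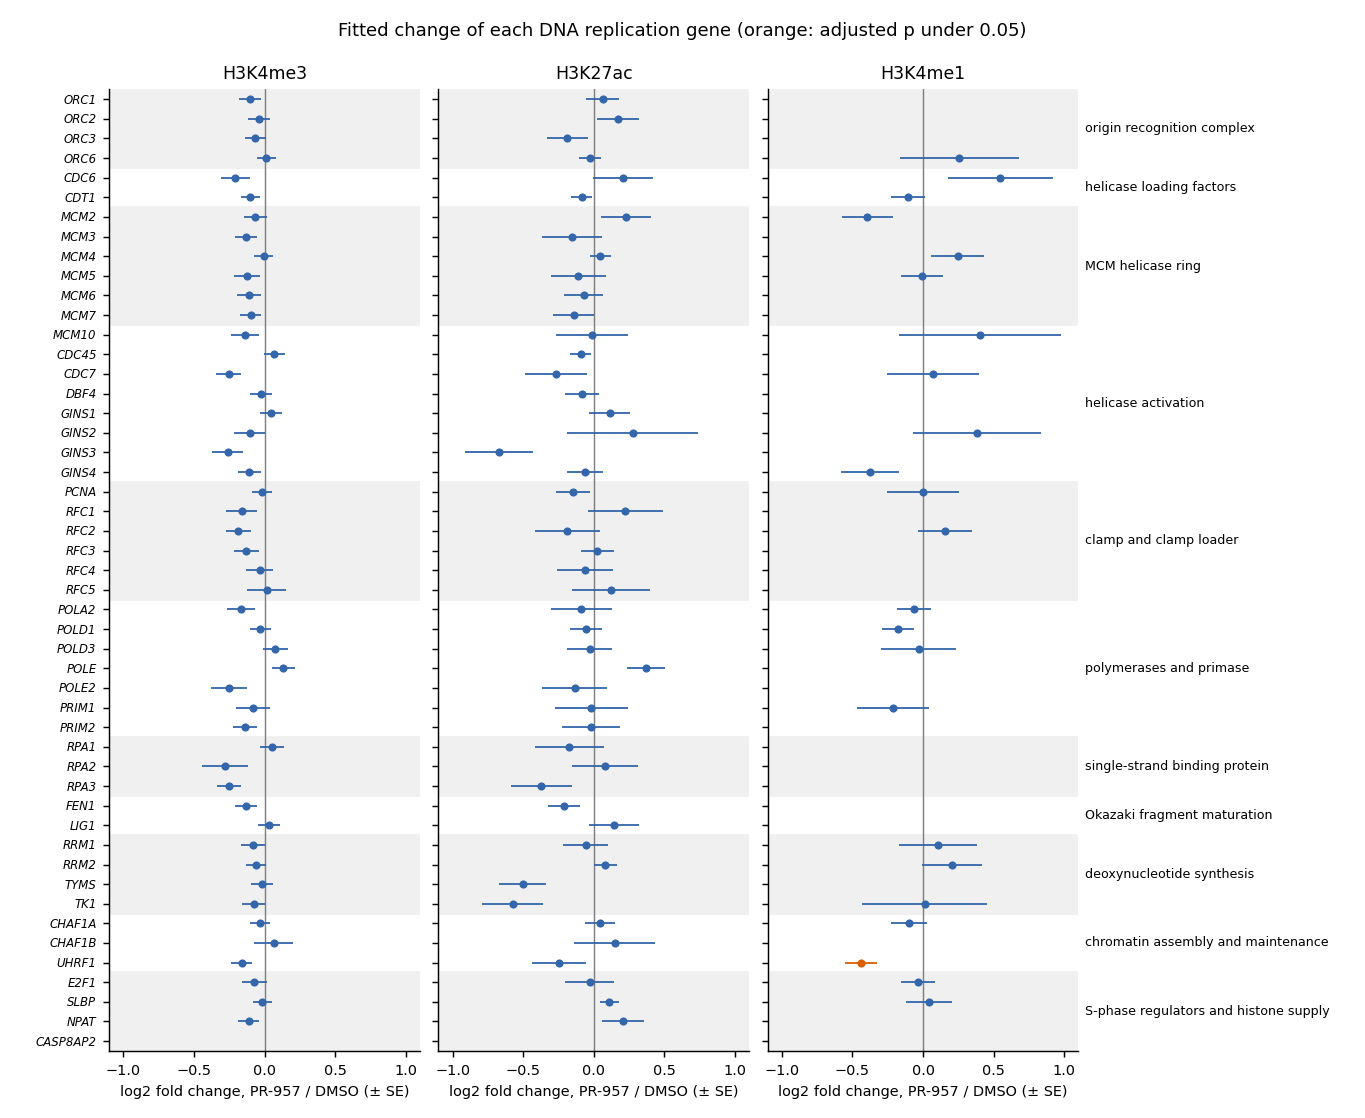
Fitted log2 fold change of PR-957 over DMSO with its SE (horizontal axes) for each gene in order of role, for H3K4me3, H3K27ac and H3K4me1, where a gene without a tested interval has no symbol. UHRF1 in H3K4me1 is the orange symbol past the threshold, and most H3K4me3 symbols lie slightly left of 0.

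No gene was called in H3K4me3 either, with a smallest adjusted p of 0.268 in edgeR, while 0.226 percent of all tested H3K4me3 intervals and 0.219% of protein-coding genes were called. An unadjusted p under 0.05 was reached by 6 of 48 genes, all with a log2 fold change below 0, and by 7.52% of all intervals (3.65% on the lower side). DESeq2 called none as well, with an unadjusted p under 0.05 in 2. RPA3, the small subunit of the single-strand binding protein, had 21.4 and 23.6 CPM in DMSO and 18.8 and 18.95 CPM in PR-957 (-0.25, SE 0.0850), at the alternative start named above. CDC7, the kinase that fires origins, had 20.05 and 19.6 CPM against 16.7 and 16.6 CPM (-0.25, SE 0.0890, adjusted p 0.314), and its partner DBF4 had -0.02 (SE 0.0753). The libraries of RPA3 and CDC7 did not overlap between treatments.

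GINS3 was below DMSO in this modification too, with 11.5 and 12.7 CPM in DMSO and 9.91 and 10.3 CPM in PR-957 (log2 fold change -0.26, SE 0.110, adjusted p 0.530). UHRF1 is given above. RFC2, of the clamp loader, had 17.9 and 20.8 CPM in DMSO against 17.4 and 16.7 CPM in PR-957 (-0.19, SE 0.0890). CDC6, the helicase loader, had 14.5 and 13.5 against 11.2 and 13.1 CPM (-0.21, SE 0.102), and at both genes the treatments did not overlap. The RFC2 value was -0.07 without DMSO replicate 2 and -0.29 without DMSO replicate 1, and the CDC6 value was -0.10 when PR-957 replicate 1 was left out and -0.32 without replicate 2 of that treatment. The lowest fitted value was at RPA2, -0.28 (SE 0.163), with 6.67 and 5.81 against 5.35 and 4.95 CPM, and the highest at POLE, 0.13 (SE 0.0815), with 21.4 and 23.2 against 24.6 and 24.4 CPM. POLE was thus higher in both PR-957 libraries in H3K4me3 as in H3K27ac, without a call in either.

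As a list, the 48 genes had small H3K4me3 log2 fold changes that lay mostly below 0. The value was below 0 in 39 of 48 genes (81.2%), against 50.3% of all tested intervals and 53.7% of protein-coding genes represented in the same way, with a median of -0.08 against -0.01 over those genes. Libraries did not overlap in 21 genes that were lower in PR-957 (43.8%), against 18.4% of all intervals and 21% of genes. They did not overlap in 5 genes that were higher (10.4%), against 18.1% and 16.9%. The 5 were CDC45, GINS1, POLD3, POLE and LIG1, and each of their intervals holds the start of another gene as well. Among the 21 lower genes this holds for ORC1, CDT1, MCM7, POLA2, RPA3, FEN1 and NPAT. All 6 genes of the MCM ring were below 0, from -0.13 at MCM3 to -0.0046 at MCM4, as were the 2 helicase loading genes, the 4 deoxynucleotide genes and the 3 measured S-phase regulators. In 47 of 48 genes the value lay within 1.2-fold of DMSO, and no test was made of the list.

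The median H3K4me3 value stayed below 0 in each alternative, and its size moved most with the PR-957 libraries. It was -0.05, with 30 of 48 genes below 0, without PR-957 replicate 1, and -0.12, with 37 genes, without PR-957 replicate 2. With offsets for GC content it was -0.07 with 38 genes. The part of the difference in depth between the DMSO and PR-957 libraries was not tested. The 28 intervals without another gene's start had a median of -0.11 with 26 below 0, and the 20 with one had a median of -0.03 with 13 below 0. Among genes with an E2F word in the promoter 15 of 18 were below 0 (median -0.10), and among those without one 19 of 24 (median -0.05), with ranges of -0.26 to 0.13 and -0.25 to 0.07 that nearly coincide. Across the 48 genes the H3K4me3 and H3K27ac fold changes had a Pearson correlation of 0.34 and a Spearman correlation of 0.30, and both were below 0 in 26 genes.

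**Figure D3:**
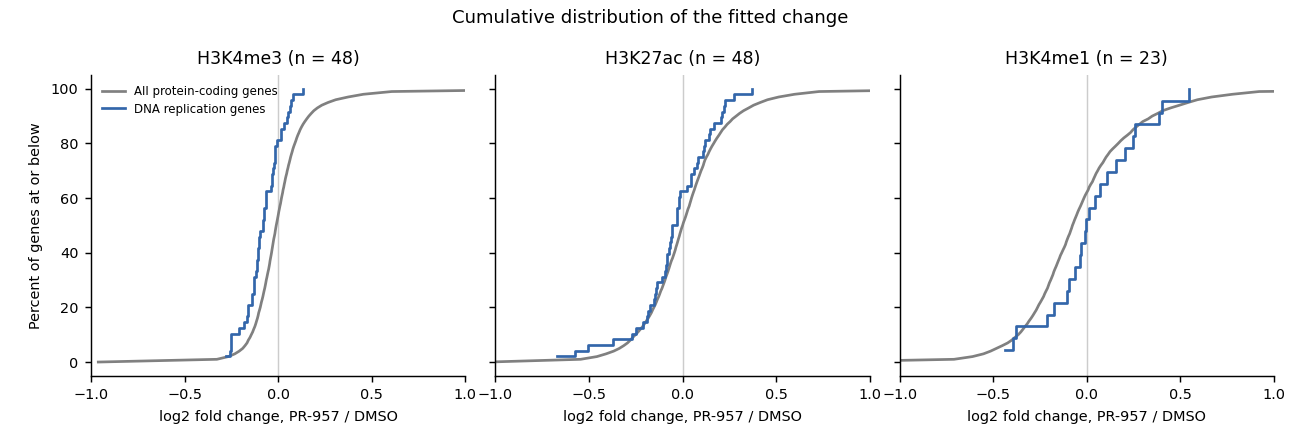
Percent of genes at or below each log2 fold change of PR-957 over DMSO (horizontal axes) for the replication genes and for all protein-coding genes with a tested interval. In H3K4me3 the curve of the replication genes lies left of that of all genes (median -0.08 against -0.01), in H3K27ac both run close together, and in H3K4me1 23 genes are shown.

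A further 44 genes of replication were read in the same way, with 24 more fork and origin genes, 8 of nucleotide supply and 12 S-phase regulators. None was called by edgeR in H3K4me3, H3K27ac or H3K4me1. In H3K4me3 the log2 fold change was below 0 in 13 of 24 fork and origin genes (median -0.0095), 7 of 8 nucleotide supply genes (median -0.04) and 8 of 11 S-phase regulators (median -0.04), where 53.7% of all genes were below 0. An unadjusted p under 0.05 was reached by 2, 0 and 0 of them, and by 7.52% of all intervals. In H3K27ac it was below 0 in 17 of 24 (median -0.07), 5 of 8 (median -0.01) and 5 of 11 (median 0.03), against 49.8% of all genes, with an unadjusted p under 0.05 in 4, 0 and 2, against 8.01% of all intervals. In H3K4me1, where 11, 7 and 8 genes had an interval, the log2 fold change was below 0 in 9 of 11 (median -0.09), 2 of 7 (median 0.07) and 4 of 8 (median -0.0015). Over all genes 62.1% were below 0. An unadjusted p under 0.05 was reached there by 1, 1 and 0 genes, against 16.2% of all intervals. H3K27me3 intervals were listed near 1 of the 44 genes. The difference between these lists and the 49 genes was not tested.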

How the data were processed

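Cut&Tag counts of 16 MOLM-13 libraries were analysed. Per the submitters' processing notes, Trimmomatic 0.39, Bowtie2 2.2.5, Picard 2.27.1, SAMtools 1.7, SEACR 1.3 and deepTools 3.5.1 were used, with hg38. The deposited values are whole-number counts that the authors made on 1 interval list per modification, without normalization. The counter, the treatment of duplicates and whether reads or fragments were counted are not given in the sources used here. Whether coordinates start at 0 or 1 is not given either, and they are quoted unaltered.

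Intervals kept by filterByExpr (minimum count 10) were normalized by TMM and tested with edgeR 4.0.16 in R 4.3.3 by the two-sided quasi-likelihood test (glmQLFit, glmQLFTest), without a replicate block, with Benjamini-Hochberg adjustment over 59229 intervals (H3K4me3), 74510 (H3K27ac), 108158 (H3K4me1) and 31806 (H3K27me3). The script was tested on simulated counts, with changes set at intervals drawn from the whole list of a modification. Of simulated 1.5-fold changes 21% were called in H3K27ac, 32% in H3K4me1 and 66% in H3K4me3. Of 2-fold changes 62%, 54% and 86% were called in the same order, so a real change can go uncalled. With 2 libraries against 2, an exact permutation test cannot go below p = 0.333. Starts came from GENCODE release 44 and promoter sequences from RefSeq (GRCh38.p14), read in Python 3.11.15.

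The genes, lists and elements were chosen with earlier results of these data known. Every gene of the list may be named, and full values go to called genes, the 6 smallest p-values per modification and the 5 highest and lowest levels in H3K4me3 and H3K27ac. Alternatives were other scalings, filters, windows, DESeq2 1.42.0, a replicate block, GC offsets and leaving out each library. The use of the canonical start alone, and the refits of called intervals that do not represent their gene, were added after seeing the data. The result of 1 marker gene is not reported here.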

Additional observations from a re-analysis of the deposited data

How the results depend on the processing

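The list counts, list medians, median levels and 20 results by gene (the 6 smallest p-values in H3K4me3, H3K27ac and H3K4me1, and 1 further interval each at UHRF1 and RRM1) were recomputed under other scalings (median-of-ratios, library size, cyclic loess, GC offsets), filters, windows and tests. The list medians of H3K4me3 and H3K27ac kept their sign in every alternative. The median of H3K4me1, at -0.0024, took either sign. Of the 20 results by gene, the sign turned for MCM2 in H3K4me1, to 0.12 with the 5 kb window, and the other gene values were not recomputed. The cause of the shifts below was not tested.

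The count of called genes in H3K4me1 was 1, and it was 0 under DESeq2, 0 with the replicate block, 0 with GC offsets, and 0 to 1 when a library was left out. The call lost was that of UHRF1. In H3K27ac the count was 0, and 1 with the 5 kb window. In H3K4me3 it was 0 throughout. The labels do not say that a replicate number marks a shared culture or day. Deviations of the same number had correlations of -0.0089, -0.0069, 0.0068 and 0.17 in H3K27ac, H3K27me3, H3K4me1 and H3K4me3 and 2 pairs each cannot settle whether the numbers pair the libraries. The block changed no other call of a representing interval.

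Counts of genes without overlap moved as follows. In H3K4me3 the higher count was 3 with summed counts and 3 with canonical starts, and ranged from 7 to 14 without a library, while the lower count ranged from 22 to 36. In H3K27ac the ranges without a library were 18 to 22 lower and 10 to 17 higher. In H3K4me1 the higher count was 1 with loess offsets, 1 with a mean count of 50, 6 with summed counts and 4 with GC offsets, and 3 to 11 without a library. The lower count was 8 with the 5 kb window, 3 with GC offsets, 8 with canonical starts, and 6 to 12 without a library, with 1 library left in an arm making such a gap easier to meet.

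The median DMSO level of H3K4me3 was 5.62 CPM per kb of merged locus and 5.46 at canonical starts, and 5.62 without either DMSO library. That of H3K27ac was 4.42 with the 5 kb window, 3.81 per kb of merged locus and 3.63 at canonical starts. That of H3K4me1 was 1.03, 0.838 and 0.846 in the same order, and 0.881 to 0.885 without a library. With the forward strand alone, 20.9% of promoters held an E2F word, 44.2% a CCAAT box and 0% the element TTTGAA. The median SE of a gene's log2 fold change was 0.171 in H3K27ac and 0.206 in H3K4me1, against 0.0819 in H3K4me3, and the part of depth in this was not tested.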
